A study of Danio rerio with 15 samples.

Results

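The report covers the genes of oxidative phosphorylation in pronephric ducts of actl6a mutant and sibling zebrafish larvae. Members were taken by name from 2 deposited tables of counts per RefSeq accession. They were the rows whose symbol begins with ndufa, ndufb, ndufc, ndufs or ndufv, with sdha to sdhd, with uqcr, with cox4 to cox8 or with atp5, plus the 13 rows for proteins of the mitochondrial genome. This gave 114 of 33298 accessions, of which 101 were nuclear rows standing for 98 symbols. Another 11 of the 109 symbols with these prefixes in the RefSeq gene table had no row. The prefixes also take in 11 assembly and inhibitory factors, such as ndufaf5 and atp5if1a, which are not subunits and are given apart.

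Oxidative phosphorylation runs on the inner mitochondrial membrane. Complexes I and II pass electrons from NADH and succinate to ubiquinone, complex III passes them on to cytochrome c, and complex IV passes them to oxygen, while complexes I, III and IV pump protons that drive the ATP synthase, complex V. The mitochondrial genome encodes a small hydrophobic core of complexes I, III, IV and V, and the nucleus encodes all other subunits, complex II included. Transporting kidney epithelia, which run on the sodium pump, are known for a dense supply of mitochondria.

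The study asked what the loss of actl6a, whose protein belongs to the SWI/SNF chromatin remodellers, does to pronephros development and cilia. Mutants came from an incross of fish carrying a CRISPR/Cas9-made actl6a allele in the Na, K-ATPase alpha1A4:GFP line, in which pronephric epithelium is green, and both groups were taken at 72 hpf (hours post fertilization). Siblings carry the genotype label WT, the mutants that of actl6a-/-, and both groups share the GFP transgene. Per the labels' protocols 15 embryos per group were dissociated with collagenase and about 10 GFP-positive duct fragments were picked by eye. There were 7 sibling and 8 mutant libraries, all siblings in one sequencing index table and all mutants in the other, so index and genotype cannot be told apart. Whether heterozygotes are among the siblings, and whether the libraries come from separate clutches, is not given in the sources used here, so p-values measure only the spread between these libraries.

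Library totals ranged from 1583052 to 4013852 counts, and 1 count was worth 0.249 to 0.632 CPM, the unit of counts scaled to a common library total. The level of actl6a itself was 84.1 ± 13.6 CPM in the 7 siblings and 24.3 ± 12.6 CPM in the 8 mutants (mean ± SD), with every mutant below every sibling (fold change -1.70 on the log2 scale, SE 0.24, adjusted p = 0.000245 by edgeR). Mutant replicates 4, 5, 6 and 8 stood apart from the other mutants. They had 25684 to 27413 detected accessions against 18188 to 21970 in the other 4 mutants, and summed markers of red blood cells of 2551 to 6161 CPM against 518 to 713 CPM. Sibling replicate 1 stood apart from the other siblings in the same way, with 23992 detected accessions and 2960 CPM of those markers against 83.3 to 141 CPM. The pronephros markers summed to 3491 to 5271 CPM in siblings, to 3670 to 5047 CPM in mutants 1, 2, 3 and 7, and to 1672, 2256, 1933 and 2011 CPM in mutants 4, 5, 6 and 8. In such bulk samples fewer duct cells and less RNA per duct cell cannot be told apart.

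Nuclear members formed a large share of every library. Their summed level in sibling replicates 1 to 7 was 43098, 58726, 54017, 47196, 59941, 54619 and 65849 CPM. In mutant replicates 1 to 8 it was 66686, 56292, 51192, 33716, 28997, 31796, 52789 and 31180 CPM. Mutants 4, 5, 6 and 8 lay below every sibling, mutant 1 lay just above the highest sibling, and mutants 2, 3 and 7 lay inside the sibling range. The group means were 54778 ± 7739 CPM (SD, n = 7) and 44081 ± 14337 CPM (SD, n = 8), a log2 ratio of -0.31, and the groups overlapped.

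**Figure D1:**
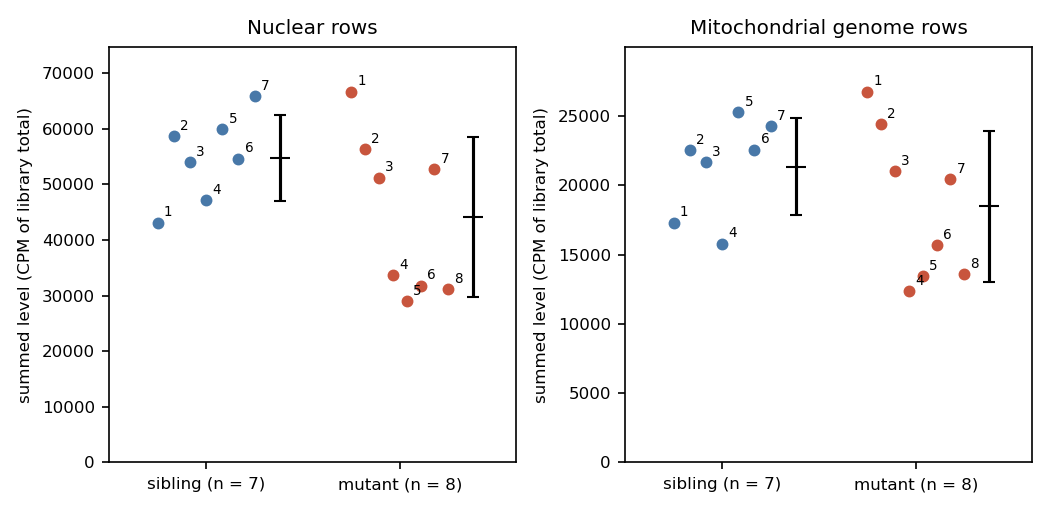
Summed level of the 101 nuclear rows (left) and the 13 mitochondrial genome rows (right) in CPM of the library total, 1 point per library with its replicate number, and the mean with SD bars for 7 siblings and 8 mutants. Mutants 4, 5, 6 and 8 lie below every sibling for the nuclear rows, and for the mitochondrial rows all of them lie below the sibling minimum of 15792 CPM, mutant 6 by little.

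The same libraries were low for nearly every nuclear member. Of 101 nuclear rows, 91 had enough counts to be tested. Mutant 4 lay below every sibling in 88 of these 91 rows, mutant 5 in 89, mutant 6 in 87 and mutant 8 in 88. Over all 12914 tested accessions the same was true of 23.7%, 21.8%, 29.0% and 23.4% in those 4 libraries. In mutants 1, 2, 3 and 7 it held for 2, 9, 11 and 7 of the 91 rows, against 23.6%, 23.0%, 14.1% and 17.6% of all accessions. Mutant 1 lay above every sibling in 56 of the 91 rows, where 13.6% of all accessions did so. In CPM the nuclear members therefore divided the mutant libraries, with 4 of them low across the list and 4 not. In deposited counts they did not divide them this way. The nuclear sum was 135329, 100457, 83400 and 100071 counts in mutants 4, 5, 6 and 8. It was 105567, 93539, 116419 and 109713 counts in mutants 1, 2, 3 and 7, and 101781 to 134807 counts in siblings.

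**Figure D2:**
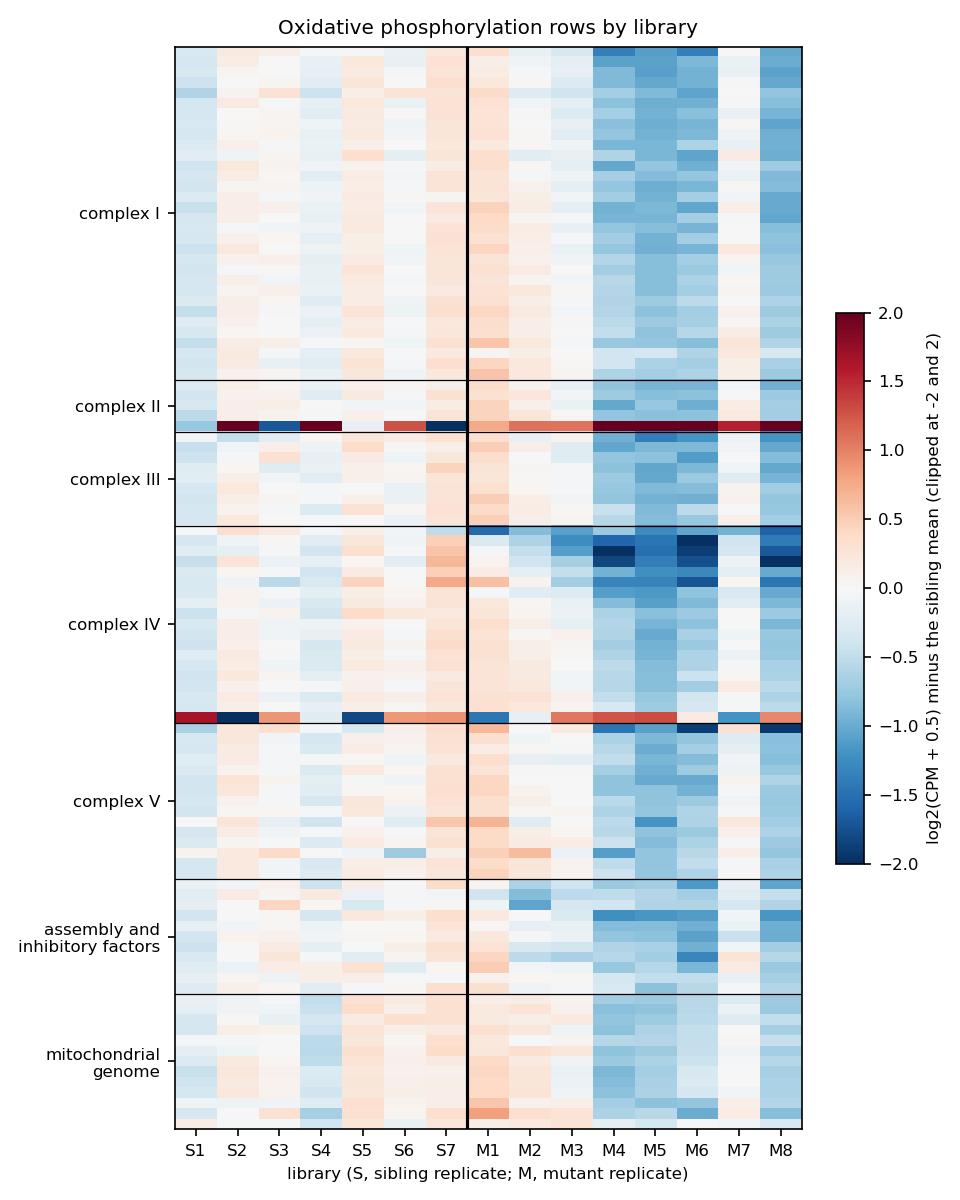
Level of each tested row in each library as log2(CPM + 0.5) minus the mean over the 7 siblings, clipped at -2 and 2, with rows grouped by complex and ordered within each group by fold change. Columns M4, M5, M6 and M8 are low in 87 to 89 of the 91 nuclear rows, and the first row of complex IV, cox8b, is low in all 8 mutants.

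Several other features of the libraries moved with this division in CPM, while epidermis markers did not. Mutants 4, 5 and 8 had the highest totals of all 15 libraries, at 4013852, 3464348 and 3209496 counts, and mutant 6 had 2623014. Endothelial markers summed to 877, 2223, 990 and 1606 CPM in mutants 4, 5, 6 and 8, to 206 to 390 CPM in the other mutants, and to 81.2 to 154 CPM in siblings 2 to 7. Intestinal markers summed to 497 to 2354 CPM in mutants 4, 5, 6 and 8, to 254 to 347 CPM in the other mutants and to 79.4 to 200.3 CPM in siblings. All 8 mutants were above every sibling in this sum, and 5 of 6 tested rows were called higher, with a median fold change of 3.85. Sibling 1, with 3084051 counts and 1485 CPM of endothelial markers, had the lowest nuclear sum of the siblings. Leukocyte markers summed to 182 to 356 CPM in mutants 4, 5, 6 and 8, to 10.1 to 93.7 CPM in the other mutants and to 0.488 to 51.2 CPM in siblings, and all 3 tested rows were called higher in mutants. Epidermis markers, of which 7 of 10 tested rows were called higher with a median fold change of 2.41, summed to 1267 to 9959 CPM in mutants and 308 to 2158 CPM in siblings, with the highest sums in mutants 6, 7 and 4. Mutant 7 had 5095 CPM of them, and mutants 5 and 8 had 1316 and 1842 CPM. The share called higher over all accessions was 13.6%. Markers of heart and of ionocytes were at most 34.9 and 57.6 CPM in sum in any library. The part of depth and of other cell types in the low nuclear sums was not tested.

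Between genotypes, 4 of the 91 tested nuclear members fell and none rose by edgeR's quasi-likelihood test at an adjusted p of 0.05, with adjustment over all 12914 accessions. That is 4.40% of them, against a background of 5.54% of all accessions called lower, 13.6% called higher and 19.2% called in either direction. The share called lower was near the background. Without adjustment, 8 nuclear members were lower and 1 higher at a p under 0.05 by the same test. The share of all accessions at that unadjusted threshold was not computed, so these counts have no exact background. It cannot be smaller than the share called after adjustment, 5.54% lower and 13.6% higher. The fitted log2 fold change, mutant over sibling, was below 0 in 89 of the 91 members, against 46.9% of all accessions, with a median of -0.24 for the members and 0.04 for all accessions.

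The size and sign of this list-wide shift depended on which libraries and terms were in the fit. With sibling 1 and mutants 4, 5, 6 and 8 left out, the nuclear median was 0.08, and 1 member was called lower and none higher (background 1.11% and 3.67%). With the number of detected accessions as a term the median was 0.20, with 1 member lower and 3 higher (background 3.04% and 7.29%). With the summed red cell and endothelial markers as a term it was 0.34, with 1 member lower and none higher (1.21% and 4.51%). This term was largely tied to genotype. Red cell markers summed to 518 to 6161 CPM in mutants and 83.3 to 141 CPM in siblings other than sibling 1, which had 2960 CPM. Endothelial markers also lay higher in every mutant than in every sibling but sibling 1. That fit therefore separates genotype from these markers poorly, and how far its median rests on sibling 1 was not tested. In the direction opposite to these fits, leaving out mutant 1 alone gave a median of -0.43 and 16 members called lower (background 11.0%). Limma with voom and quality weights, which weighs libraries unequally, called 76 nuclear members lower and 1 higher (background 19.3% and 23.9%). The member called lower in each of these fits was cox8b.

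**Figure D3:**
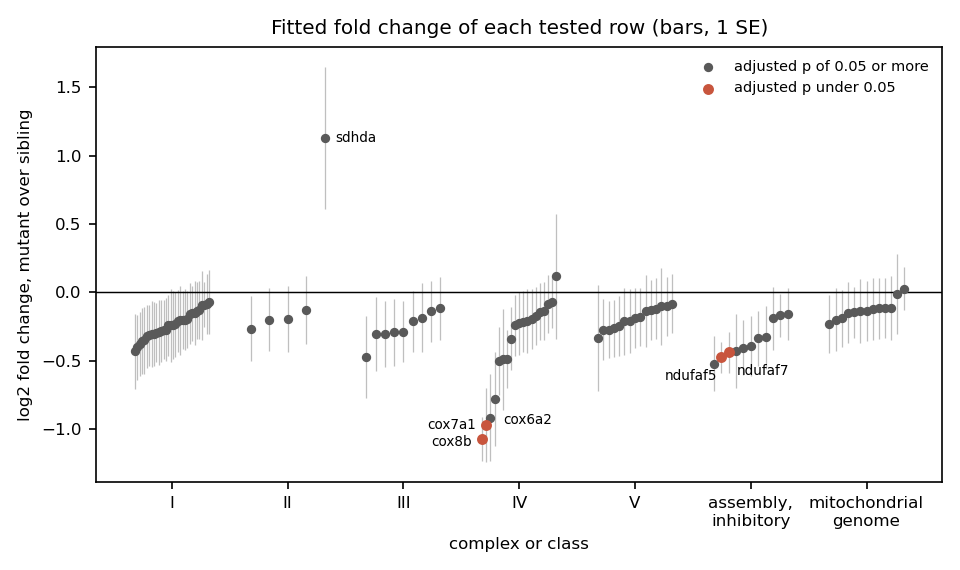
Fitted log2 fold change, mutant over sibling, of each of the 91 tested nuclear and 13 mitochondrial rows, with bars of 1 SE. Most rows lie a little below 0, and the rows past the threshold (in red) are cox8b and cox7a1 of complex IV and the assembly factors ndufaf5 and ndufaf7.

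Complex I, the NADH dehydrogenase and the largest of the complexes, had 36 rows, of which 32 were tested and none passed the threshold. All 32 fold changes were below 0, from -0.43 for ndufs1 to -0.07 for ndufa13, with a median of -0.24. ndufs1, which carries iron-sulfur clusters of the electron path, lay at 241, 339, 329, 294, 290, 271 and 345 CPM in siblings 1 to 7. In mutants 1 to 8 it lay at 378, 270, 239, 115, 139, 116, 296 and 147 CPM. Mutants 4, 5, 6 and 8 were thus at about the same low level, while mutant 1 was above every sibling (log2 fold change -0.43, SE 0.27, adjusted p = 0.280). The flavoprotein ndufv1, which takes up the electrons of NADH, had a fold change of -0.28 (SE 0.23), and the accessory subunit ndufb8 one of -0.09 (SE 0.22). In 29 of the 32 rows exactly 4 mutants lay below every sibling.

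Complex II, succinate dehydrogenase, had 5 rows and no call. The flavoprotein sdha, the iron-sulfur subunit sdhb, the membrane anchor sdhc and the anchor sdhdb had fold changes of -0.20, -0.13, -0.20 and -0.27. sdhda, the other copy of that anchor, was the exception. It lay at 4.54, 38.7, 2.11, 39.7, 7.07, 20.1 and 0.488 CPM in siblings 1 to 7, and at 13.9, 17.5, 17.6, 48.6, 49.9, 50.3, 24.5 and 39.9 CPM in mutants 1 to 8. The siblings alone spanned from 1 count to 39.7 CPM, and the groups overlapped (1.13, SE 0.52, adjusted p = 0.139). Near-identical copies can share reads.

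Complex III, which hands electrons to cytochrome c, had 9 rows and no call, with fold changes from -0.48 for the less abundant of 2 uqcrb rows to -0.12 for the Rieske iron-sulfur protein uqcrfs1. The hinge subunit uqcrh lay at 749 to 1041 CPM in siblings, with a median of 910 CPM, and at 433 to 1038 CPM in mutants, and 5 of 8 mutants were below every sibling. Its fold change was -0.29 (SE 0.22, adjusted p = 0.380). The core proteins uqcrc1, uqcrc2a and uqcrc2b had fold changes of -0.21, -0.30 and -0.19.

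Complex IV, cytochrome c oxidase, held both subunits that passed the threshold. It had 20 rows with ndufa4a, ndufa4b and the untested ndufa4l2a counted here, since in mammals NDUFA4 is a subunit of this complex. Of 19 tested rows 2 fell, where 5.54% of all accessions were called lower. The subunits cox4i1, cox5aa, cox5ba, cox6a1 and cox7c had fold changes of -0.19, -0.07, -0.14, -0.14 and -0.09. The fold changes furthest below 0 lay in cox8b, cox7a1 and cox6a2, whose mammalian namesakes are the heart and skeletal muscle forms of their subunits. The drop was not confined to them. Next came ndufa4b, cox6b1, cox5b2, ndufa4a and cox8a, with -0.78, -0.50, -0.49, -0.49 and -0.34.

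cox8b (NM_001303042.1) fell in every mutant. It lay at 294, 387, 342, 296, 325, 290.5 and 213 CPM in siblings 1 to 7. In mutants 1 to 8 it lay at 104, 165, 142, 180, 125, 146, 157 and 97.8 CPM. The highest mutant was below the lowest sibling, which held for 2 nuclear members, cox8b and ndufaf5, and for 1.28% of all accessions, while 1.25% had every mutant above every sibling. Mutant 1, where most members were at their highest, was among the lowest for cox8b. The fitted log2 fold change was -1.08 (SE 0.16, adjusted p = 0.00037), and cox8b stayed past the threshold in all 26 alternative fits. The largest adjusted p among them was 0.0195, with the red cell and endothelial markers as a term.

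cox7a1 (NM_001172678.1) lay at 326, 395, 426, 362, 491, 393 and 581 CPM in siblings 1 to 7. In mutants 1 to 8 it lay at 344, 271, 177, 139, 151, 104, 319 and 157 CPM. All mutants but mutant 1 were below every sibling, and the fold change was -0.97 (SE 0.27, adjusted p = 0.0198). The call was lost with detected accessions as a term (-0.50, adjusted p = 0.0718), with red cell and endothelial markers as a term (-0.38, adjusted p = 0.392) and without the 5 libraries that stood apart (-0.60, adjusted p = 0.109). The marker term was largely tied to genotype, so the loss in that fit is hard to read.

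cox6a2 lay at 394, 407, 451, 355, 577, 456 and 686 CPM in siblings 1 to 7. In mutants 1 to 8 it lay at 455, 333, 216, 117, 163, 125, 365 and 145 CPM. 6 of 8 mutants were below every sibling, and the gene missed the threshold (-0.92, SE 0.32, adjusted p = 0.0551). ndufa4b, at 487 ± 136 CPM in the siblings and 269 ± 151 CPM in the mutants (mean ± SD over 7 and 8 libraries), had a fold change of -0.78 (SE 0.35, adjusted p = 0.123). cox6b1, which faces the intermembrane space, had one of -0.50 (SE 0.25, adjusted p = 0.169).

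Skeletal muscle markers were measured beside cox8b, cox7a1 and cox6a2. They summed to 6281, 806, 2577, 16082, 12627, 876 and 1403 CPM in siblings 1 to 7 and to 599, 1086, 3673, 4332, 855, 1831, 2107 and 5163 CPM in mutants 1 to 8. None of 14 tested muscle rows was called, and their median fold change was -1.27. Both groups spanned a wide range of muscle signal. The part of muscle in the changes of these genes was not tested.

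Paralogs were also compared as ratios of their counts within a library. Such a ratio is free of the scaling, but it can still vary with depth where the more abundant gene does not follow it: over the 15 libraries the counts of cox7a2a, cox6a1 and cox8a ranged 1.58-, 1.66- and 1.91-fold against 2.54-fold for the totals. cox7a1 relative to cox7a2a had a log2 ratio of -1.17 ± 0.12 in the 7 siblings and -1.96 ± 0.39 in the 8 mutants (mean ± SD), and all 8 mutants lay below every sibling. cox6a2 relative to cox6a1 had a ratio of -0.31 ± 0.25 in siblings and -1.18 ± 0.39 in mutants, with 7 of 8 mutants below every sibling. Mutant 1, high for both genes in CPM, was below every sibling in the first ratio, at -1.73, and overlapped with them in the second, at -0.59. For cox8b over cox8a 3 of 8 mutants lay below every sibling, because sibling 7 was low at -2.78, with ratios of -2.01 ± 0.38 and -2.67 ± 0.59. In mutants 4, 5 and 6, at -1.89, -2.19 and -2.18, both cox8 genes were low, and in mutant 1, at -3.76, cox8b alone was.

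sdhda relative to sdhdb had the largest difference of the 12 pairs and the widest spread among siblings. It was -6.06 ± 2.36 in the 7 siblings and -3.62 ± 1.31 in the 8 mutants (mean ± SD). Mutants 4, 5, 6 and 8 were above every sibling, and the groups overlapped. Among mutants cox4i2 relative to cox4i1 spread more widely (SD 1.53). Of the other pairs, atp5if1b relative to atp5if1a had 5 of 8 mutants below every sibling, and ndufa4b over ndufa4a, cox5b2 over cox5ba and cox5ab over cox5aa each had 4. uqcrc2a over uqcrc2b had 2 and atp5meb over atp5mea 1, with nearly the same mean in both groups, 0.16 in each. cox4i2, whose mammalian namesake is a form used in lung and low oxygen, was at 1.59 to 30.8 CPM in siblings and 3.16 to 24.2 CPM in mutants, and the groups overlapped fully. These 12 ratios are a description with no test, and reads shared by near-identical paralogs can move them. The share of all gene pairs whose ratio separates the groups was not computed. As cox7a1 and cox8b were already called lower in the same libraries, their ratios are not separate evidence.

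**Figure D4:**
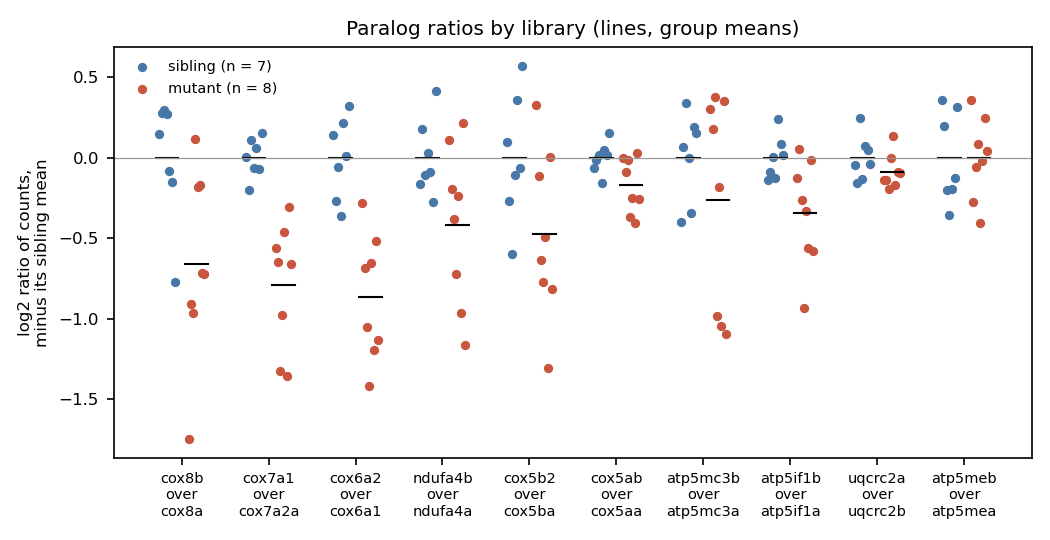
Log2 ratio of the counts of 10 paralog pairs in each library, minus the mean ratio of the 7 siblings, with lines at the group means (cox4i2 and sdhda, with wide spread, are not drawn). For cox7a1 over cox7a2a all 8 mutants lie below the 7 siblings, for cox6a2 over cox6a1 7 of 8 do, and the atp5me pair shows no shift of the mean.

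Complex V, the ATP synthase, had 20 rows, of which 15 were tested and none passed. The subunits atp5fa1 and atp5f1b of the catalytic head had the same fold change, -0.21 (SE 0.24 in each). atp5mc1, which encodes the c subunit of the membrane rotor, lay at 1319 to 2056 CPM in siblings, with a median of 1780 CPM, and at 896 to 2092 CPM in mutants. 4 mutants were below every sibling and 1 above, and the fold change was -0.27 (SE 0.22, adjusted p = 0.404). The range over the 15 rows ran from -0.34 for atp5mc3b to -0.08 for atp5f1d.

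The assembly and inhibitory factors had the lowest median, -0.39, and 2 of 11 fell, where 5.54% of all accessions were called lower. ndufaf5 (NM_001082894.1), whose human namesake hydroxylates a core subunit of complex I, lay at 87.2, 113, 105, 115, 93.6, 99.5 and 97.7 CPM in siblings 1 to 7. In mutants 1 to 8 it lay at 76.4, 55.4, 70.4, 71.0, 67.0, 62.9, 87.1 and 72.3 CPM. All mutants were below every sibling, though mutant 7 and sibling 1 were less than 1 count apart (-0.48, SE 0.11, adjusted p = 0.00909). ndufaf7 (NM_001076763.1), another complex I assembly factor, had 7 of 8 mutants below every sibling, at 91.3 ± 15.6 CPM (SD, n = 7) and 64.8 ± 12.3 CPM (SD, n = 8) with a fold change of -0.44 (SE 0.15, adjusted p = 0.0467). ndufaf5 missed the threshold without the 5 libraries that stood apart, with nearly the same fold change (-0.46, adjusted p = 0.0646), with detected accessions as a term (-0.33, adjusted p = 0.0711) and with red cell and endothelial markers as a term (-0.23, adjusted p = 0.315). In those 3 fits ndufaf7 had fold changes of -0.40, -0.26 and -0.18 and an adjusted p of 0.230, 0.276 and 0.579. It was also lost with no filter on low counts (adjusted p = 0.0549), without bias adjustment (0.0680) and when any one of sibling 3 and mutants 3, 5, 6, 7 and 8 was left out. For both genes the fit with the marker term is hard to read, since that term was largely tied to genotype.

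The remaining factors did not pass. ndufaf2, of the same role, had a fold change of -0.52 (SE 0.20, adjusted p = 0.0778), and ndufaf8 and ndufaf6 had -0.39 and -0.34. The succinate dehydrogenase factors sdhaf1 to sdhaf4 ran from -0.40 for sdhaf3 to -0.17 for sdhaf4. Of the ATPase inhibitors, which block ATP hydrolysis by the synthase, atp5if1b had -0.43 and atp5if1a -0.16.

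10 nuclear rows could not be tested, with 1 to 457 counts over all libraries. They were ndufa1, ndufb2, ndufb7, ndufs8b, atp5f1c, atp5pd, atp5mj, the second rows of atp5mc3b and atp5pf, and ndufa4l2a. atp5f1c encodes the central stalk of the ATP synthase, and whether reads of such genes were counted under other accessions was not tested. ndufa4l2a, whose mammalian namesake responds to low oxygen, was uneven, with 23.7, 51.4, 5.34 and 41.4 CPM in mutants 4, 5, 6 and 8, at most 2.41 CPM in the other mutants and at most 4.86 CPM in siblings. It was the 1 nuclear member called higher when no filter on low counts was used.

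The 13 mitochondrial genome rows showed no call in either direction, and none had a p under 0.05 before adjustment. Their fold changes ran from -0.23 for ND1 to 0.03 for ND6, with a median of -0.14 and 12 of 13 below 0. Without mutant 1 that median was -0.31. In sum they lay at 17314, 22532, 21654, 15792, 25263, 22583 and 24254 CPM in siblings 1 to 7. In mutants 1 to 8 the sum was 26777, 24436, 21028, 12385, 13459, 15694, 20470 and 13578 CPM. In deposited counts the sum was nearly the same in both groups, 44585 ± 5325 in the 7 siblings and 44306 ± 3335 in the 8 mutants (mean ± SD). In CPM the same 4 mutants were low as for the nuclear members, below every sibling in 11, 11, 6 and 11 of the 13 rows for mutants 4, 5, 6 and 8, and in none for the others. The ratio of mitochondrial to nuclear counts was 0.335 to 0.422 in siblings and 0.367 to 0.494 in mutants. Mutants 2, 5, 6 and 8 were above every sibling, at 0.434, 0.464, 0.494 and 0.4355, and the groups overlapped. Over the 15 libraries the mitochondrial sum of counts ranged 1.41-fold and the nuclear sum 1.62-fold, against 2.54-fold for the totals. The ratio can thus vary with depth, and the part of depth in it was not tested.

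By complex, the mitochondrial rows differed little in their fold changes. Over the 15 libraries the counts of COX1, COX2 and COX3 ranged 1.2-, 1.16- and 1.33-fold, against 2.54-fold for the totals. ATP8 and ND6 had the widest ranges, 2.12- and 2.05-fold. Where counts hardly follow the total, as in COX1, COX2 and COX3, CPM is by its arithmetic set mostly by the total. Alike fold changes and the lack of calls then say little about such genes. The part of this in the fold changes of other rows, such as ND4L with a 1.89-fold range of counts, was not tested. Of the complex I genes, ND1, ND2 and ND5 had fold changes of -0.23, -0.20 and -0.19, ND3, ND4 and ND4L -0.14, -0.15 and -0.11, and CYTB of complex III had -0.15. COX1, COX2 and COX3, the catalytic core of complex IV, had -0.12 in each. ATP6 and ATP8 of complex V had -0.14 and -0.01. ND6 lay at 561 to 868 CPM in siblings, with a median of 714 CPM, and at 578 to 874 CPM in mutants, with no mutant below every sibling (0.03, SE 0.16, adjusted p = 0.920). ND6 is encoded on the strand opposite to the other protein genes, and whether counting used strand is not given in the sources used here.

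Counts of the most abundant rows hardly followed library size. COX2 was counted 6432, 6224, 5696, 5617, 5599, 5965 and 6109 times in siblings 1 to 7 and 5939, 5558, 5871, 6064, 6131, 6029, 5880 and 5743 times in mutants 1 to 8. The highest and lowest counts differed by 1.16-fold, while library totals differed by 2.54-fold. The CPM of COX2 therefore ran from 1511 in mutant 4, the deepest library, to 3752 in mutant 1, the shallowest. The highest count of any row in a library was 5558 to 6432, and in 13 of 15 libraries it was that of a mitochondrial row. Nuclear members together had 83400 to 135329 counts per library, a 1.62-fold range.

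**Figure D5:**
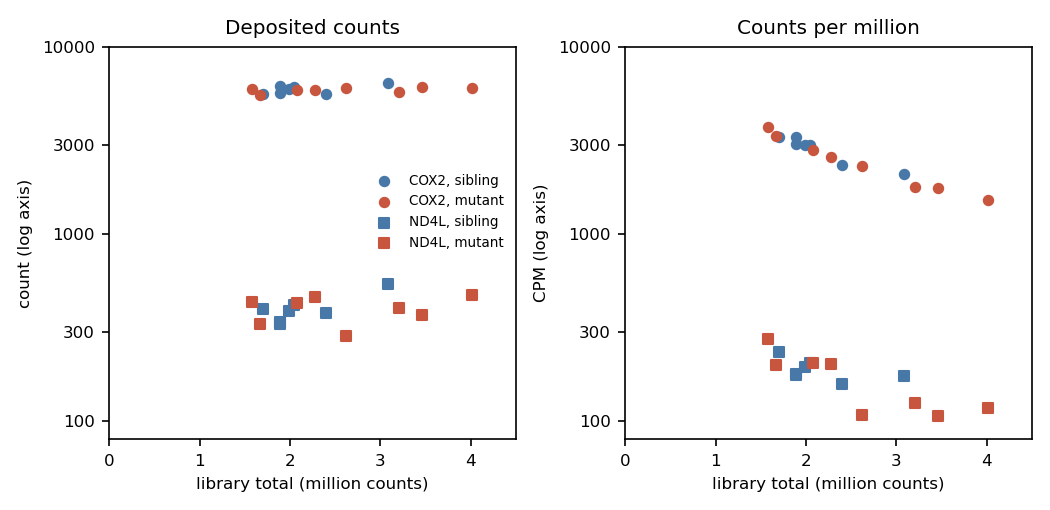
Deposited counts (left) and CPM (right) of COX2 (circles) and ND4L (squares), on log axes, against the library total, for 7 siblings and 8 mutants. COX2 counts stay between 5558 and 6432 at every library size while its CPM falls from 3752 to 1511.

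High counts were common among the members. 12 of the 13 mitochondrial rows exceeded 1000 counts in every library, the exception being ND4L with 284 to 538 counts. Of nuclear members, 69 exceeded 1000 counts in some library, 28 in every library, and 28 to 67 in any one library. ND4L was also low in the same libraries, at 117, 106, 108 and 125 CPM in mutants 4, 5, 6 and 8 against 158 to 233 CPM in siblings, and 198 to 274 CPM in the other mutants. The 22 tested nuclear rows of at most 1000 counts in every library had a median fold change of -0.32, and 3 were called lower. The 69 rows above it had a median of -0.21, and 1, cox7a1, was called lower. Over all accessions 5.54% were called lower, and no share was taken for accessions of the same count range. The 4 mutants below every sibling in the sum of the low-count rows were again 4, 5, 6 and 8, at 2140, 2176, 1895 and 2078 CPM against 3031 to 3977 CPM in siblings. What sets the upper limit on counts was not tested.

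Genes around the respiratory chain showed a similar small shift with few calls. Of 31 tested assembly factors outside the name rule, 1 fell and none rose, with a median of -0.29; over all accessions 5.54% were called lower and 13.6% higher. The gene was foxred1, a complex I assembly factor, at 90.3 ± 25.3 CPM (SD, n = 7) and 45.2 ± 14.8 CPM (SD, n = 8), with a fold change of -0.96 (SE 0.23, adjusted p = 0.00909) and 5 of 8 mutants below every sibling. None of 7 tested genes of cytochrome c and membrane exchange was called (median -0.22). Of 62 tested mitochondrial ribosomal protein rows, 1 fell, mrpl36 (-0.54, SE 0.17, adjusted p = 0.0354), with a median of -0.26.

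The fuel pathways were alike in their medians but not in their sums by library. Glycolysis rows summed to 3361 to 4548 CPM in mutants and 4501 to 6280 CPM in siblings, with 7 of 8 mutants below every sibling and none above. For the tricarboxylic acid cycle sum 4 mutants were below every sibling and 1 above. Over all accessions 5.54% were called lower and 13.6% higher, the background for the calls in each list here. Of 12 tested genes of the tricarboxylic acid cycle none fell and 1 rose (median -0.25). It was dldh, the shared dihydrolipoamide dehydrogenase, at 0 to 11.0 CPM in siblings and 0 to 40.1 CPM in mutants (2.36, SE 0.68, adjusted p = 0.0208), with overlapping groups and 0 counts in 2 siblings and mutant 1. Of 22 tested glycolysis rows 1 fell and 1 rose (median -0.22). The isomerase tpi1a fell from 132 ± 14.3 CPM (SD, n = 7) to 61.9 ± 24.4 CPM (SD, n = 8), with every mutant below every sibling (-1.06, SE 0.24, adjusted p = 0.00711), and the dehydrogenase gapdhs rose (0.84, SE 0.21, adjusted p = 0.0123). Of 13 tested rows for regulators of mitochondrial biogenesis and gene expression 1 rose, pprc1, a coactivator related to PGC-1 (0.69, SE 0.19, adjusted p = 0.0205), and none fell (median -0.21). With the red cell and endothelial markers as a term, which was largely tied to genotype, none of these 6 genes passed the threshold. Their fold changes in that fit were -0.58 for foxred1 (adjusted p = 0.202), -0.17 for mrpl36 (0.576) and 1.15 for dldh (0.318). They were -0.46 for tpi1a (0.221), 0.66 for gapdhs (0.190) and 0.65 for pprc1 (0.166). Those of pprc1 and gapdhs moved less than those of foxred1, mrpl36, tpi1a and dldh. Without the 5 libraries that stood apart foxred1, pprc1, gapdhs and mrpl36 also missed the threshold (adjusted p = 0.129, 0.318, 0.122 and 0.192), and dldh had no value. With detected accessions as a term foxred1, dldh, pprc1, gapdhs and mrpl36 missed it (0.0634, 0.473, 0.105, 0.0853 and 0.155). tpi1a passed in these fits. dldh also missed the threshold with DESeq2 (adjusted p = 0.0502). Without bias adjustment in edgeR dldh and mrpl36 missed it (adjusted p = 0.0961 and 0.0530). Without mutant 1, 12 assembly factors and 29 ribosomal rows were called lower, where 11.0% of all accessions were.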

How the data were processed

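RNA was measured in 7 sibling and 8 mutant libraries. The values are whole-number counts as the authors deposited them, 1 row per RefSeq accession, in 2 tables. Per the submitters' processing notes, cutadapt, FastQC, STAR, featureCounts and edgeR were used with the build GRCz11; the annotation, the strand setting and whether reads or molecules were counted are not given in the sources used here. An accession in only 1 table counted 0 in the other. Symbols came from a RefSeq table of another assembly (names only): 20452 of 33298 accessions (61.4%, 87.6% of counts) matched.

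The genotype test was the quasi-likelihood F test of edgeR 4.0.16 under R 4.3.3 (TMM factors 0.867 to 1.12, filterByExpr by group, robust fit with bias adjustment, Benjamini-Hochberg adjustment over 12914 accessions, threshold 0.05). It was also run on simulated counts that had neither the split of the mutant libraries nor the limit on high counts. That run therefore does not cover these features. Fold changes are log2, mutant over sibling. CPM is the count over the library total, without TMM or transcript length, so a level is compared between libraries, and its rank among genes served only to choose which to name. A count of 0 allows 3 counts, 0.747 to 1.90 CPM; intervals and floors cover counting error only.

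Named are actl6a, all mitochondrial rows, per class the member of highest mean CPM (at least 10 CPM) and up to 3 called members by p, tissue paralogs, and up to 3 called genes per pathway list; other members were named after their values were seen. Members and lists were chosen with earlier results of these data known. Alternatives were DESeq2 1.42.0, limma 3.58.1, other filters and scalings, added terms, a replicate block and leaving libraries out. Python 3.11.15 with numpy 2.4.6, pandas 2.3.3 and matplotlib 3.10.9 made the tables and plots.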

Additional observations from a re-analysis of the deposited data

Results flagged for a closer look

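Outlying single libraries were looked for by Dixon's test in 108 groups, where chance alone would give about 5.4 flags, 1 in 20, and 3 were found. Sibling replicate 5 had 56.5 CPM of actl6a, the lowest sibling and still above every mutant. Sibling replicate 3 had 122 CPM of ndufaf7, the highest sibling, and without that library the call of ndufaf7 was lost. Sibling replicate 1 had 11.0 CPM of dldh, the highest sibling, in the library that also stood apart in red cell markers.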

How the results depend on the processing

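The count of all accessions called was 2476, and it was 3960 with no filter on low counts, 5575 with limma voom and quality weights, 1631 with edgeR without bias adjustment, 1334 with detected accessions as a term, 738 with red cell and endothelial markers as a term, and 590 without sibling 1 and mutants 4, 5, 6 and 8. Leaving out single replicates gave 1621 to 3390 of these calls and 3 to 16 nuclear members called lower, the highest of both without mutant 1. Same-numbered libraries showed no clear pairing (correlations of deviations from -0.54 to 0.26 over replicates 1 to 7), which cannot show whether they shared a clutch. With the replicate block 1097 accessions and 2 nuclear members, cox7a1 and cox8b, were called (adjusted p of ndufaf5 0.0649 and of ndufaf7 0.122). The fits without bias adjustment and without the 5 libraries were chosen after seeing the data. Nuclear members called higher numbered 0, and 1 with no filter, 1 with voom and 3 with detected accessions. Nuclear members called lower numbered 4, and 76 with voom, 1 with either term and 1 without the 5 libraries. Mitochondrial rows called numbered 0, and 5 with voom and 1, ATP8, with detected accessions. The nuclear median was -0.24, and -0.59 with voom, 0.0811 without the 5 libraries, 0.20 with detected accessions and 0.34 with the markers. The mitochondrial median was -0.14, and under the same 4 settings -0.48, 0.14, 0.28 and 0.37. Without the 5 libraries the log2 ratio of the summed levels was 0.000378 for nuclear and 0.0744 for mitochondrial rows. DESeq2, the 2 other scalings and counts summed per symbol left the nuclear and mitochondrial counts within 1.5 times and kept the sign of both medians, and cox8b was called in every alternative. The red cell and endothelial term was largely tied to genotype, with sibling 1 the only sibling inside the mutant range. The cause of these changes was not tested.

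Single genes also changed the sign of their log2 fold change. Without the 5 libraries these were ND1 0.0449, ND2 0.12, COX1 0.14, COX2 0.14, ATP8 0.39, ATP6 0.13, COX3 0.15, ND3 0.19, ND4L 0.27, ND4 0.11, ND5 0.0617, CYTB 0.13, ndufb8 0.20, sdhc 0.12, uqcrh 0.0346, cox7c 0.17, atp5mc1 0.0155, atp5if1a 0.0744, cox4i1 0.11, cox4i2 -0.16, cox5aa 0.15, cox5ab 0.11, cox5ba 0.11, cox5b2 0.0201, cox6a1 0.15, cox7a2a 0.0807, cox8a 0.00687, atp5mc3a 0.029 and atp5mc3b 0.25. With detected accessions as a term they were ND1 0.13, ND2 0.21, COX1 0.31, COX2 0.32, ATP8 0.49, ATP6 0.28, COX3 0.31, ND3 0.27, ND4L 0.29, ND4 0.17, ND5 0.20, CYTB 0.28, ndufb8 0.34, sdhc 0.25, uqcrh 0.12, cox7c 0.31, atp5mc1 0.15, atp5if1a 0.19, cox4i1 0.21, cox4i2 -0.73, cox5aa 0.29, cox5ab 0.25, cox5ba 0.26, cox5b2 0.0753, cox6a1 0.26, cox7a2a 0.20, cox8a 0.0726, atp5if1b 0.0708, atp5mc3a 0.11 and atp5mc3b 0.35. With red cell and endothelial markers as a term they were ND1 0.21, ND2 0.29, COX1 0.45, COX2 0.47, ATP8 0.61, ATP6 0.37, COX3 0.43, ND3 0.34, ND4L 0.37, ND4 0.20, ND5 0.32, CYTB 0.39, ndufb8 0.49, sdhc 0.40, uqcrh 0.23, cox7c 0.44, atp5mc1 0.28, atp5if1a 0.31, cox4i1 0.33, cox4i2 -0.75, cox5aa 0.44, cox5ab 0.40, cox5ba 0.43, cox5b2 0.20, cox6a1 0.43, cox6b1 0.057, cox7a2a 0.36, cox8a 0.17, ndufa4a 0.0471, atp5if1b 0.21, atp5mc3a 0.25 and atp5mc3b 0.62. ND6 was -0.0569 with no filter, -0.11 with voom, -8.99e-05 when scaled by accessions of at most 1000 counts and -0.0251 when scaled without mitochondrial rows. Over the fits that left out 1 replicate ATP8 ran from -0.28 to 0.0397, ND6 from -0.0916 to 0.0443 and cox4i2 from -0.14 to 0.42. The main fit tested 31, 7, 12, 13, 22 and 62 rows of the 6 pathway lists and called 19.2% of all accessions. Calls in either direction among other assembly factors, cytochrome c and exchange, the tricarboxylic acid cycle, biogenesis, glycolysis and mitochondrial ribosomal rows numbered 1, 0, 1, 1, 2 and 1. They were 26, 4, 10, 7, 7 and 55 with voom, 1, 1, 1, 0, 5 and 2 with no filter, 1, 0, 0, 1, 2 and 0 without bias adjustment, 1, 0, 0, 1, 1 and 0 with the replicate block, and 1, 0, 0, 1, 2 and 1 with DESeq2. They were 0, 1, 0, 0, 4 and 1 with detected accessions, 0, 0, 0, 0, 2 and 0 with the markers or without the 5 libraries, and 2, 0, 1, 1, 3 and 2 when scaled without mitochondrial rows. Leaving out single replicates gave 1 to 12, 0 to 1, 0 to 5, 0 to 4, 2 to 5 and 1 to 29, the highest for assembly factors and ribosomal rows without mutant 1. Over all accessions 19.3% were called lower and 23.9% higher with voom, and 3.04% and 7.29% with detected accessions. These shares were 1.21% and 4.51% with the markers, and 1.11% and 3.67% without the 5 libraries. Without mutant 1, 11.0% were called lower. For the other settings no share was computed, so their list counts have no background here. The depth of 1583052 to 4013852 counts limits rows near the floor, and rows near the highest counts do not scale with it.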
